A study of Drosophila melanogaster with 6 samples.

Results

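The Cpr genes are the Drosophila melanogaster genes named for cuticle proteins with the Rebers and Riddiford domain, taken here as every gene whose symbol is Cpr followed by a digit. The rule found 70 such genes among the 17612 genes counted. Cpr genes absent from the count table were not looked for. It leaves out Cpr itself, the gene of NADPH-cytochrome P450 reductase, and CPR family genes with other names such as Lcp1 and Pcp. RNA was sequenced from leg discs of third-instar larvae, the epithelial sacs from which adult legs form. The groups were Double, described in the series as leg discs with a PRE deletion, and WT, the wild type, with 3 libraries of 20 discs in each group and all flies kept at 25 °C. A PRE is a Polycomb response element, a DNA element to which Polycomb group repressors are recruited. The labels give neither the deleted elements nor the strain, sex or age within the instar of either group, and no label says whether the libraries of a group came from separate crosses. The p-values below therefore measure only the spread between these libraries.

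The insect cuticle is built from chitin fibres and a large set of proteins that bind them, and the CPR family is the largest family of such proteins. The Rebers and Riddiford domain binds chitin, and family members differ in the stage, tissue and kind of cuticle in which they are used. In Drosophila many CPR genes lie side by side in tandem clusters, and a symbol such as Cpr65Au gives the cytological position, here 65A, of the polytene map. Imaginal disc cells take part in several rounds of cuticle and matrix production after the larval stage, under the control of ecdysone pulses, so many CPR genes are known to be used later than the stage sampled here. The protein sequences of these genes were not used here.

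Most Cpr genes were barely detected in leg discs. Of the 70 genes, 17 had no count in any library, 34 had 1 to 20 counts over the 6 libraries together, and 19 had more than 20. The share with no count, 24.3%, was near that of all genes in the table, 25.7%. With no count in 66267492 counts in all, 3 counts as an upper limit allow a level of up to 0.0453 CPM (counts divided by library size with TMM factors), which covers counting error only. At a mean of at least 1 CPM in either group, 15 of the 70 were expressed. Cpr92F lay just inside that limit, with means of 0.853 CPM in Double and 1.03 CPM in WT, and Cpr56F just outside, with 0.253 CPM in Double and 0.922 CPM in WT. The count filter of the test kept 14 of the 70, where it kept 8802 of the 17612 genes in the table. The 14 are the expressed genes other than Cpr92F.

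**Figure D1:**
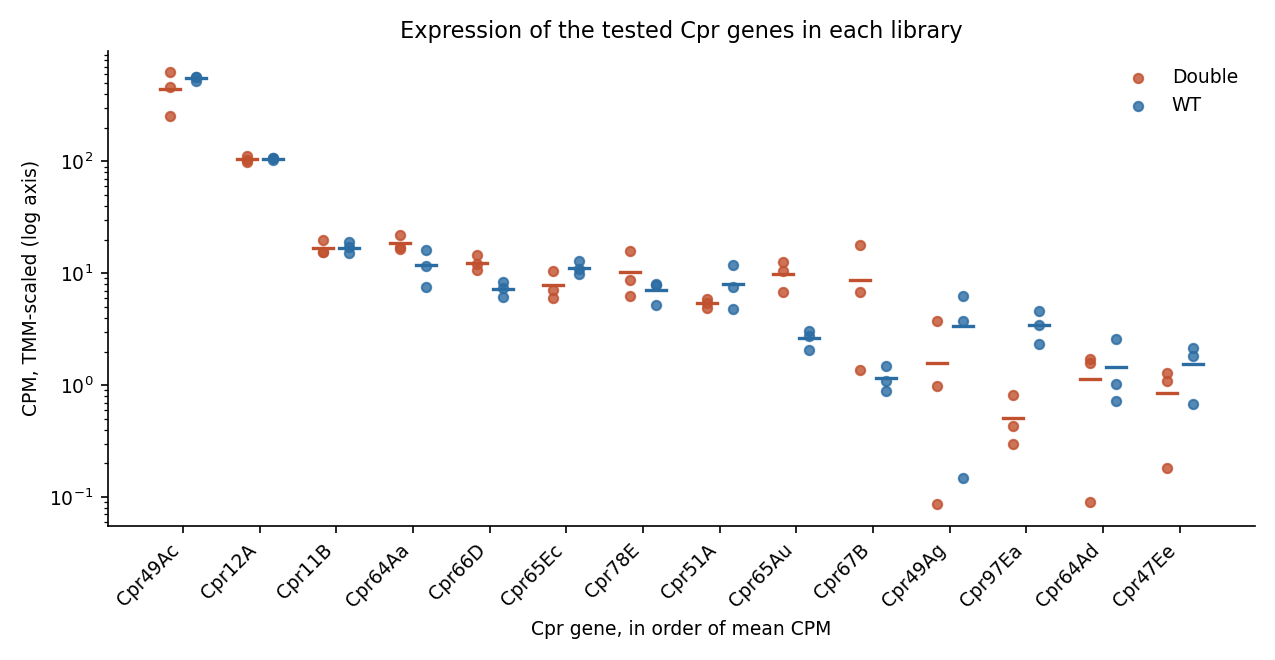
CPM scaled with TMM factors on a log axis (y) of the 14 Cpr genes that passed the count filter (x, in order of their mean over the 6 libraries). Points are single libraries, Double left and WT right, and short lines are the means of 3 libraries. Cpr49Ac and Cpr12A stand above the others, the 3 Double points of Cpr65Au lie above its WT points, and those of Cpr97Ea lie below.

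A pair of genes held most of the Cpr reads. Cpr49Ac (FBgn0033725, cluster 49A on arm 2R, 12386666 to 12390057 on the plus strand in dm6) made up 55.1% to 74.7% of the summed Cpr CPM in Double libraries and 73.5% to 75.3% in WT libraries. Cpr12A (FBgn0030494, X chromosome, 13543643 to 13544907) added 11.8% to 24.3% in Double and 13.8% to 14.8% in WT. The other 68 genes together read 113, 94.7 and 88.0 CPM in Double replicates 1, 2 and 3, against 76.8, 99.2 and 72.7 CPM in WT replicates 1, 2 and 3. The summed CPM of all 70 genes was 836.7, 459.0 and 653.9 in Double and 748.7, 779.8 and 697.9 in WT, so the groups overlapped. In whole discs fewer expressing cells and less RNA per cell cannot be told apart, here and below. Per kilobase of annotated exon, the mean level over the 6 libraries was 236 CPM for Cpr49Ac and 123 CPM for Cpr12A, then 20.7 for Cpr11B, 18.6 for Cpr78E, 16.8 for Cpr65Ec, 14.9 for Cpr64Aa, 11.9 for Cpr65Au and 10.3 for Cpr51A. Cpr66D read 8.90, Cpr67B 4.84, Cpr49Ag 3.81, Cpr64Ad 1.34, Cpr97Ea 1.12 and Cpr47Ee 0.872 CPM per kilobase.

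The abundant genes differed in how steady they were. Cpr49Ac read 625, 253 and 463 CPM in Double, against 564, 573 and 522 CPM in WT. The WT libraries were close together, while Double replicates 2 and 3 lay below all of WT and Double replicate 1 above it. Its log2 fold change was -0.31 (95% interval -1.17 to 0.56; Benjamini-Hochberg adjusted p = 0.7566 by edgeR's quasi-likelihood test), and without Double replicate 2 it was -0.02. Cpr12A read 98.5, 111 and 103 CPM in Double and 108, 107 and 103 CPM in WT, overlapping groups with a log2 fold change of -0.03 (95% interval -0.18 to 0.13). Cpr11B (FBgn0030398), also on the X chromosome, read 15.4, 19.7 and 15.5 CPM in Double and 18.9, 17.1 and 15.1 CPM in WT, a log2 fold change of -0.01 (95% interval -0.34 to 0.32). For these 2 X-linked genes the interval leaves out any change of 1 log2 unit in either direction.

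The 70 genes fall at 33 cytological positions, 12 with at least 2 genes and 21 with a single gene. Of the 49 genes in clusters 8 passed the count filter, and of the 21 lone genes 6 did. Arm 3L holds 35 of the genes and 7 of the tested ones, 2R 21 and 4, 3R 5 and 1, and X 4 and 2, while none of the 5 genes on 2L was tested. The lone tested genes were Cpr11B, Cpr12A, Cpr51A, Cpr66D, Cpr67B and Cpr78E.

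**Figure D2:**
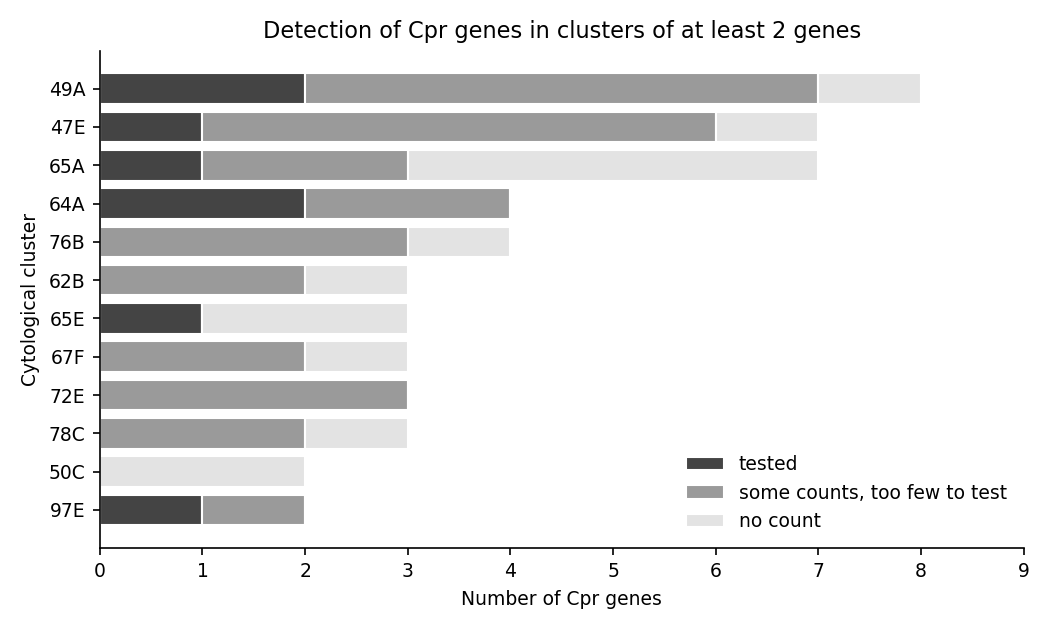
Number of Cpr genes (x) at each cytological position with at least 2 of them (y), divided by detection in the 6 libraries. Dark grey marks genes that passed the count filter, mid grey genes with some counts that did not, and light grey genes with no count. Between 0 and 2 genes of each cluster were tested, out of 2 to 8.

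In the 6 clusters with a tested gene, 1 gene held most of the counts. At 49A, 8 genes span 38.5 kb and 7 had a count, but Cpr49Ac held 99.5% of the 33393 counts. The only other tested gene there was Cpr49Ag (FBgn0033730), with 0.086, 3.71 and 0.993 CPM in Double against 0.147, 6.22 and 3.71 CPM in WT. Double replicate 1 and WT replicate 1 were both near 0, and the groups overlapped. Its log2 fold change was -1.05 (95% interval -4.56 to 2.46). At 65A, Cpr65Au held 97.7% of the 427 counts of 7 genes, and 4 of the 7 had none. At 65E, Cpr65Ec held all 640 counts of 3 genes. At 64A, Cpr64Aa held 91.9% of 1068 counts, and all 4 genes had a count. At 97E, Cpr97Ea held 92.9% of 141 counts, and its neighbour Cpr97Eb had 2 in Double and 8 in WT.

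At 47E, the last of the clusters with a tested gene, 6 of 7 genes had a count, 130 in all, and Cpr47Ee (FBgn0033602) held 63.8% of them. The clusters without a tested gene were nearly silent. The clusters 62B, 67F, 72E, 76B and 78C held 8, 24, 21, 6 and 43 counts over 3, 3, 3, 4 and 3 genes, and none of their genes was tested. At 72E the counts were spread, with 10 of the 21 in Cpr72Ea, and at 62B and 76B the gene with the most held 4 of 8 and 3 of 6. Both genes at 50C had no count. Of the genes outside the filter the most counts were those of Cpr92F (66), Cpr56F (37), Cpr78Ca (37), Cpr47Eb (24) and Cpr11A (23). Cpr92F had 8, 13 and 7 counts in Double and 26, 4 and 8 in WT. Some numbered genes are close copies of one another, among them Cpr65Ax1 and Cpr65Ax2, with no count each, and Cpr67Fa1 and Cpr67Fa2, with 0 and 18. Reads that fit both copies may have been left out or given to 1 of them, so these counts are uncertain.

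Cpr92A (FBgn0038714, arm 3R, 19597502 to 19598955) was counted in every Double library and in no WT library. It had 9, 2 and 7 counts in Double and 0, 0 and 0 in WT, too few to be tested. Against a floor of 3 counts over the WT group it was at least 6.08-fold higher in Double, a bound for counting error only. Of the other genes at 0 in 1 group, Cpr65Ay had 0 counts in Double and 8 in WT, all 8 of them in WT replicate 1. Cpr56F, also untested, separated the groups the other way, with 2, 1 and 5 counts in Double and 9, 13 and 7 in WT. No other untested Cpr gene separated the groups. How often untested genes of the whole table do so was not counted.

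By the labels Double and WT differ in the PRE deletion, and any other difference between the groups, such as strain or larval age, cannot be told apart from it. Among Cpr genes 1 rose and 1 fell in Double. Cpr65Au rose and Cpr97Ea fell, which makes 2 of 14 tested genes past an adjusted p of 0.05, where 1.49% of all 8802 tested genes passed. In the 2 directions the shares of all tested genes were 0.545% higher and 0.943% lower. By estimate 5 of the 14 were higher and 9 lower in Double. The 4 tested genes whose groups did not overlap were Cpr65Au, Cpr66D and Cpr64Aa, higher in Double, and Cpr97Ea, lower. Over all tested genes the groups did not overlap in 19.5%, made up of 10.3% higher and 9.11% lower. At an unadjusted p under 0.05 stood 5 of 14 (Cpr67B besides those 4), against 12.3% of all tested genes. The median log2 fold change of the 14 was -0.17 and that of all tested genes 0.00, and the median absolute log2 fold change was 0.62 for the 14 and 0.12 for all tested genes. Standard errors of the 14 ran from 0.07 for Cpr12A to 1.42 for Cpr49Ag. Low counts widen such estimates, and genes of similar level were not compared. Since the other 56 Cpr genes had too few counts to be tested, these counts do not describe the whole family.

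**Figure D3:**
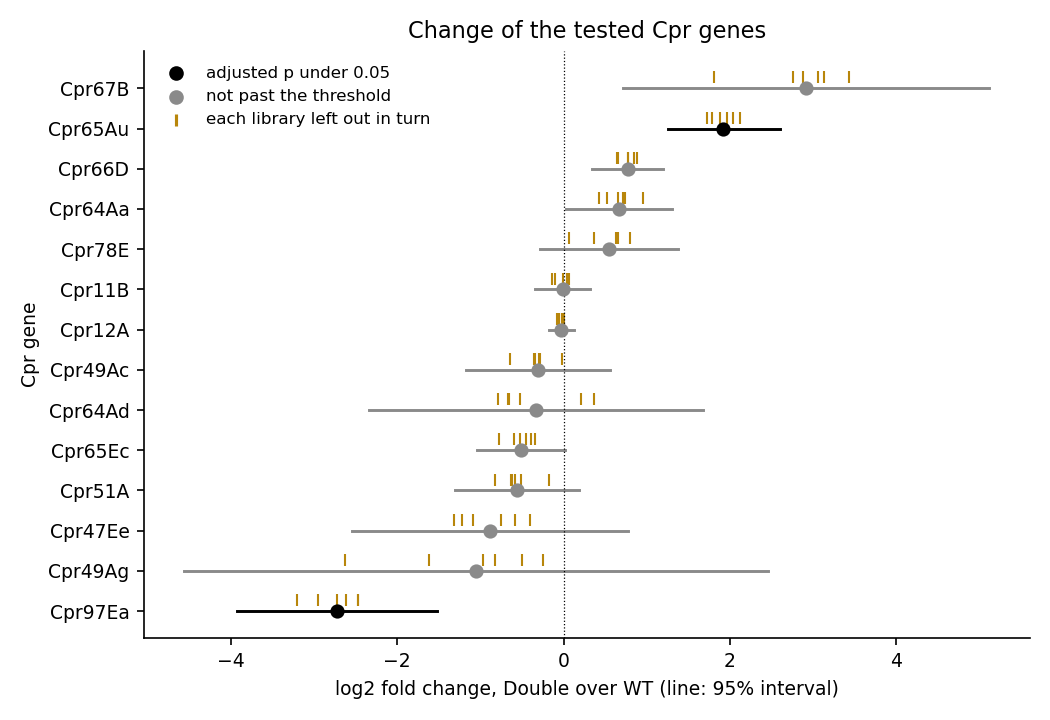
Log2 fold change of Double over WT (x) for the 14 tested Cpr genes (y), with lines for the 95% interval. Black points passed an edgeR adjusted p of 0.05, grey points did not, and small gold ticks give the log2 fold change with each of the 6 libraries left out in turn. Cpr65Au at 1.92 and Cpr97Ea at -2.72 are the black points, and the widest intervals are those of Cpr49Ag, Cpr67B and Cpr64Ad.

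Cpr65Au (FBgn0042119) lies on the minus strand of arm 3L at 6131242 to 6132109 (dm6). It had 145, 116 and 69 counts in Double and 37, 27 and 23 counts in WT, or 12.5, 10.5 and 6.85 CPM in Double against 2.73, 3.05 and 2.08 CPM in WT. All Double libraries were above all WT libraries, with Double replicate 3 the lowest of its group. The mean was 9.94 ± 2.85 CPM in Double and 2.62 ± 0.495 CPM in WT (SD, n = 3 each), 3.79-fold higher in Double. This is a log2 fold change of 1.92 (95% interval 1.25 to 2.60, SE 0.30; edgeR adjusted p = 0.02029). With each library left out in turn the log2 fold change lay between 1.72 and 2.12, and the call was lost without Double replicate 1 (edgeR adjusted p = 0.1187), Double replicate 2 (0.09161), WT replicate 2 (0.05791) and WT replicate 3 (0.06607).

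Cpr65Au stood alone among the CPR genes of its cluster in its level. With the genes of other names, 19 genes symbolled Cpr65A, Lcp65A or Acp65A lie within 31.2 kb, and 10 of them had no count. Cpr65Au held 73.3% of their 569 counts. Its direct neighbour Lcp65Ag3, a larval cuticle protein gene on the same strand, held another 95 counts, and the pair made up 512 of the 569. Lcp65Ag3 read 3.61, 1.45 and 1.89 CPM in Double and 0.442, 1.02 and 0.271 CPM in WT, groups that do not overlap, with a log2 fold change of 2.03 (SE 0.63; edgeR adjusted p = 0.2238). Lcp65Ag3 has close copies in Lcp65Ag1 and Lcp65Ag2, with 7 and 2 counts, so its counts are uncertain. Lcp65Ac, 13.58 kb from the left end of Cpr65Au, had 6 counts in Double and 17 in WT.

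**Figure D4:**
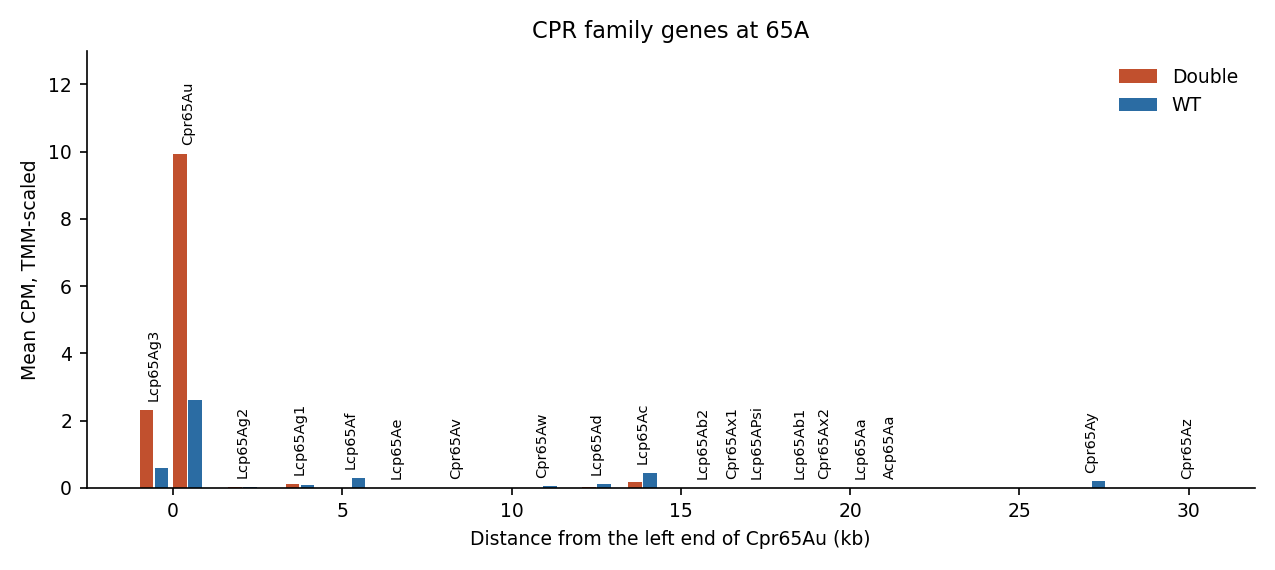
Mean CPM scaled with TMM factors (y) of the CPR family genes at 65A by distance in kb from the left end of Cpr65Au (x), Double left and WT right at each gene (n = 3 libraries each). Bar widths are not to the scale of the genes. Cpr65Au reads 9.94 CPM in Double and 2.62 CPM in WT, Lcp65Ag3 2.32 and 0.577 CPM in the same order, and the other 17 genes stay under 1 CPM.

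A non-coding gene lies over Cpr65Au on the opposite strand. The single exon of asRNA:CR46005 covers 491 of the 526 exonic bases of Cpr65Au (93.3%) and all of Lcp65Ag3. It had 22, 12 and 10 counts in Double and 10, 1 and 4 in WT, 59 in all against 417 for Cpr65Au, and its log2 fold change was 1.62 (edgeR adjusted p = 0.3879). The libraries were made strand-specific, but no source used here says whether the counting used the strand, so the counts of this pair may not be fully separated. Of the 5 annotated genes on each side of Cpr65Au, 3 were tested and none was called, and the third tested neighbour, the transcription factor gene Ets65A, had a log2 fold change of -1.28 (edgeR adjusted p = 0.5903).

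Cpr97Ea (FBgn0039480) lies on the minus strand of arm 3R at 27083130 to 27087778 (dm6) and overlaps no other annotated gene. It had 5, 9 and 3 counts in Double and 47, 41 and 26 counts in WT, or 0.430, 0.813 and 0.298 CPM in Double against 3.46, 4.63 and 2.35 CPM in WT. The highest Double library was below the lowest WT library. The mean was 0.514 ± 0.268 CPM in Double and 3.48 ± 1.14 CPM in WT (SD, n = 3 each), 6.78-fold lower in Double. On the log2 scale the change was -2.72 (95% interval -3.93 to -1.52, SE 0.53), and the edgeR adjusted p of 0.04944 was just under 0.05. The log2 fold change lay between -3.21 and -2.47 with each library left out in turn, and in none of these 6 fits did the call hold (edgeR adjusted p = 0.06283 to 0.219). Of its 5 annotated neighbours on each side 3 were tested and none was called. CG14257, the nearest tested neighbour at a gap of 311 bp, read 11.1 CPM in Double and 11.8 CPM in WT.

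Cpr66D and Cpr64Aa were higher in Double without overlap but did not pass the test. Cpr66D (FBgn0052029) read 12.0, 14.5 and 10.7 CPM in Double and 8.32, 7.35 and 6.15 CPM in WT, a log2 fold change of 0.77 (SE 0.19; edgeR adjusted p = 0.1081). Cpr64Aa (FBgn0035510) read 16.4, 22.1 and 17.1 CPM in Double and 7.51, 16.2 and 11.6 CPM in WT. For Cpr64Aa the highest WT library, replicate 2, lay close below Double replicate 1, and its log2 fold change of 0.67 (SE 0.27) did not pass (edgeR adjusted p = 0.3818). The other tested gene of that cluster, Cpr64Ad (FBgn0035513), read 1.72, 0.0904 and 1.59 CPM in Double and 1.03, 2.60 and 0.723 CPM in WT, overlapping groups with a log2 fold change of -0.33 (95% interval -2.34 to 1.68).

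The remaining tested genes varied without separating the groups. Cpr65Ec (FBgn0035737) read 10.5, 5.97 and 7.15 CPM in Double and 12.9, 10.9 and 9.86 CPM in WT, with a log2 fold change of -0.51 (95% interval -1.04 to 0.02). Cpr51A (FBgn0033942) read 4.90, 5.88 and 5.46 CPM in Double and 4.79, 11.9 and 7.51 CPM in WT, with a log2 fold change of -0.56 (95% interval -1.31 to 0.18). For Cpr65Ec the groups overlapped only in that Double replicate 1 lay above WT replicate 3. For Cpr51A they overlapped through WT replicate 1, which lay below every Double library. Cpr78E (FBgn0037114) read 15.8, 6.24 and 8.64 CPM in Double and 7.81, 8.03 and 5.24 CPM in WT (log2 fold change 0.54, 95% interval -0.28 to 1.37), and Cpr47Ee read 1.29, 0.181 and 1.09 CPM in Double and 1.84, 0.678 and 2.17 CPM in WT (log2 fold change -0.88, 95% interval -2.54 to 0.78).

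Cpr67B (FBgn0035985, arm 3L, 9404797 to 9406174) had the largest estimate of the 14, and whether it was called depended on the method. It read 17.8, 1.36 and 6.75 CPM in Double and 0.884, 1.47 and 1.09 CPM in WT. Double replicates 1 and 3 were far above WT, while Double replicate 2 lay within the WT range. The estimate was a log2 fold change of 2.92 (95% interval 0.72 to 5.12, SE 0.91; edgeR adjusted p = 0.2708). DESeq2 called it (adjusted p = 0.004477), as did edgeR without Double replicate 2 (log2 fold change 3.43, adjusted p = 0.02638), and without Double replicate 1 the log2 fold change was 1.81 (edgeR adjusted p = 0.4347).

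The larval cuticle protein genes Lcp2, Lcp3 and Lcp4 read highest in Double replicates 1 and 3, the same libraries as Cpr67B, and none of the 3 passed the edgeR test. Lcp2 read 21.7, 2.62 and 16.6 CPM in Double and 0.0, 2.26 and 0.543 CPM in WT, Lcp3 read 8.17, 1.90 and 6.85 CPM in Double and 0.516, 1.47 and 0.452 CPM in WT, and Lcp4 read 33.1, 8.13 and 24.4 CPM in Double and 0.589, 9.61 and 4.88 CPM in WT. In the other markers of larval epidermis and body wall Double replicates 1 and 3 were not the 2 highest libraries. Lcp1, another larval cuticle protein gene, read 47.3, 14.7 and 29.8 CPM in Double and 5.89, 46.5 and 16.7 CPM in WT. Ddc, an enzyme gene of cuticle tanning, was lower in every Double library than in any WT library, with 2.75, 0.633 and 2.38 CPM in Double and 6.41, 7.46 and 6.87 CPM in WT, and did not pass either. Lcp65Ac stayed under 1 CPM in every library. The 7 markers together summed to 28.0 to 113 CPM in Double and 14.3 to 67.3 CPM in WT, with Lcp65Ab1 at 0 in every library. The 10 fat body markers summed to 13623, 3288 and 8592 CPM in Double and 196, 6843 and 4786 CPM in WT. Double replicate 2 was the lowest of its group in Lcp1 to Lcp4, in Ddc and in both sums, and WT replicate 1 had the lowest fat body sum of all. Single markers separated the groups where the sums did not. Sgs1, a salivary glue protein gene, read 183, 130 and 109 CPM in Double and 0.442, 0.452 and 5.43 CPM in WT (log2 fold change 6.05, SE 0.83; edgeR adjusted p = 0.06784). Lsp1alpha, a larval serum protein gene of the fat body, read 367, 269 and 231 CPM in Double and 13, 108 and 43.0 CPM in WT (log2 fold change 2.42, SE 0.84; edgeR adjusted p = 0.3818). Fbp2, another fat body marker, went the other way, with 19.2, 3.62 and 12.7 CPM in Double and 18.0, 190 and 204 CPM in WT. Its groups overlapped, at a log2 fold change of -3.53 (SE 1.21, edgeR adjusted p = 0.3812). By estimate Apoltp of the fat body and Sgs5 and fkh of the salivary gland were also lower in Double. The other tested markers of both lists were higher by estimate. The part of other tissue in the levels of Cpr67B, Cpr65Au, Cpr97Ea and the other Cpr genes was not tested.

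**Figure D5:**
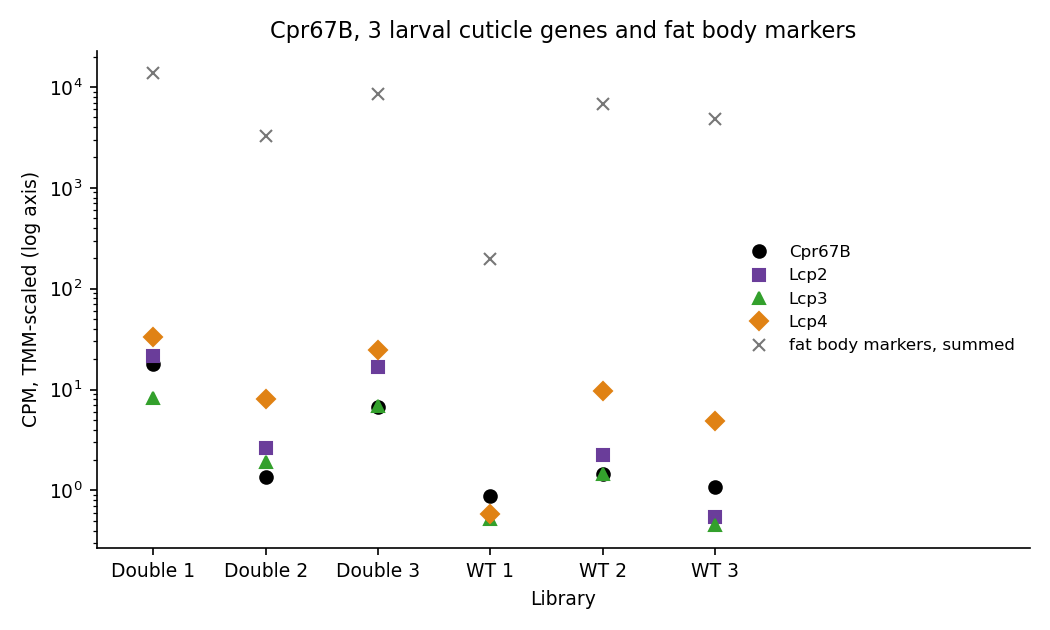
CPM scaled with TMM factors on a log axis (y) in each of the 6 libraries (x) for Cpr67B, 3 larval cuticle protein genes and the sum of 10 fat body markers. Lcp2 is not drawn in WT replicate 1, where it had no count. Cpr67B reads 17.8 and 6.75 CPM in Double replicates 1 and 3 and between 0.884 and 1.47 CPM in the other 4 libraries.

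Leg disc markers were abundant in all libraries, with a sum that was lower in Double, where dac, a member of the list, fell. The 9 of them summed to 2861 to 2961 CPM in Double, below every WT library, and to 3029 to 3130 CPM in WT. The transcription factor gene dac fell, with 417, 416 and 409 CPM in Double and 580, 612 and 601 CPM in WT (edgeR adjusted p = 0.003869). Of the other 8 none passed, though Scr was lower in Double without overlap and Dll and Antp were higher without overlap. With dac these 4 stood at an unadjusted p under 0.05, against 12.3% of all tested genes. The sums thus hold genes that were lower in Double and genes that were higher. The amount of leg disc tissue was not tested. The 7 tracheal markers, 4 of which also stand in the chitin and matrix lists below, summed to 2073 to 2415 CPM in Double and 2063 to 2591 CPM in WT. The 9 salivary gland markers summed to 3635, 1319 and 1792 CPM in Double and 306, 284 and 3773 CPM in WT, so that WT replicate 3 was the highest of all and the other WT libraries the lowest. The 7 muscle markers summed to 23.9 to 37.0 CPM in Double and 49.3 to 67.7 CPM in WT. Of the 7, 2 were called lower in Double, against 0.943% of all tested genes. At an unadjusted p under 0.05 stood 5 of the 7, against 12.3% of all tested genes, and their median log2 fold change was -1.37 for the 7. The sums of the markers of haemocytes, neurons and glia, and adepithelial myoblasts ranged over the libraries by 2.09-fold, 2.42-fold and 1.10-fold. Total counts per library were 10025174 to 11772621 in Double and 8818943 to 13605668 in WT.

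Most other cuticle protein genes had no count or too few to be tested. Of 28 CPR family genes with other names 9 had no count and 7 were tested, none passing in either direction by edgeR, with 4 at an unadjusted p under 0.05 and a median log2 fold change of 2.03 for the 7. Their share at that p compares with 12.3% of all tested genes. The 28 genes summed to 121, 31.8 and 85.6 CPM in Double and 22.4, 75.7 and 32.1 CPM in WT, overlapping groups that each varied widely. The smallest p belonged to Lcp3 (log2 fold change 2.82, SE 0.68; edgeR adjusted p = 0.1102) and to Pcp, a pupal cuticle protein gene. Pcp read 3.18, 2.08 and 3.48 CPM in Double and 6.11, 11.3 and 6.15 CPM in WT (log2 fold change -1.42, SE 0.35; edgeR adjusted p = 0.1123). DESeq2 called both, Lcp3 higher (adjusted p = 0.002675) and Pcp lower (adjusted p = 0.01911). Of 26 Tweedle genes, a separate family of chitin-binding cuticle proteins, 15 had no count and 3 were tested, 1 higher and none lower. Over all tested genes 0.545% were called higher and 0.943% lower. TwdlG rose, with 27, 16 and 17 counts in Double and 1, 1 and 0 in WT (edgeR adjusted p = 0.02753). The ratio of its summed counts was 30.4 (exact 95% interval 8.06 to 257 for counting error only). The TwdlG call was lost with the replicate number as a block and in 5 of the 6 fits with a library left out.

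Among the genes that make and shape the matrix edgeR called none. Of 33 genes of chitin synthesis and assembly 24 were tested and 2 had no count, with 7 at an unadjusted p under 0.05, none past the test in either direction and a median log2 fold change of 0.02. The smallest p were those of Gasp, a chitin-binding protein gene, with 131, 125 and 116 CPM in Double and 196, 157 and 153 CPM in WT (edgeR adjusted p = 0.09655), and of Gnpnat, an enzyme of UDP-N-acetylglucosamine synthesis, with 95.5, 86.0 and 93.9 CPM in Double and 80.4, 73.2 and 76.2 CPM in WT (edgeR adjusted p = 0.1552). DESeq2 and 2 other settings called Gasp lower. All 13 genes of the apical ZP-domain matrix were tested and none passed, with 1 at an unadjusted p under 0.05 and a median log2 fold change of 0.12. Over all tested genes 12.3% stood at that p and only 1.49% were called. zye and dy had log2 fold changes of 2.04 (SE 0.61) and 0.48 (SE 0.27).

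Tanning genes and ecdysone response genes gave no call by edgeR. Of rk, Ddc, Eip74EF and Hr3, DESeq2 called only Ddc, lower in Double (log2 fold change -1.85, adjusted p = 0.009221). DESeq2 results for the other genes of both lists are not given here. Of 19 names for tanning and pigmentation 18 were matched and 12 tested, with 6 at an unadjusted p under 0.05, none past the edgeR test and a median log2 fold change of -0.12. Of those 6, rk and stw were higher in Double by estimate, and Ddc, ple, yellow-c and yellow-d were lower. The largest of these estimates was that of yellow-c, with 4.47, 3.98 and 7.94 CPM in Double and 89.9, 25.2 and 40.2 CPM in WT (log2 fold change -3.26, SE 0.64; edgeR adjusted p = 0.1345). rk, the receptor of the tanning hormone bursicon, read 20.8 ± 1.31 CPM in Double and 15.2 ± 0.758 CPM in WT (SD, n = 3 each), and Ddc, which encodes dopa decarboxylase, had the values given above (edgeR adjusted p = 0.1028 and 0.1345 in that order). Of 25 ecdysone cascade and cuticle regulators 24 were tested, with 2 at an unadjusted p under 0.05, none past the test and a median log2 fold change of -0.03. For both lists the shares of all tested genes were 12.3% at that p and 1.49% called. Eip74EF and Hr3, both ecdysone response genes, had log2 fold changes of 0.25 (SE 0.08) and 1.29 (SE 0.45). The groups did not overlap in either gene (edgeR adjusted p = 0.2113 and 0.3034 in that order). A difference in larval age between the groups was not tested.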

How the data were processed

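Poly-A RNA of 3 Double and 3 WT leg disc libraries was counted per gene by the authors, and the deposited table holds whole-number counts, not normalized. The submitters' processing notes name STAR 2.7.0, HTSeq, DESeq2 and the build dm6, with no role or order; no source used here gives the annotation, strand setting or filters. If reads were assigned without regard to strand, or shared between near-identical copies, counts of overlapping or duplicated genes would be affected.

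Symbols, positions and exon lengths came from the Ensembl annotation of BDGP 6.54 (release 115), which has dm6 coordinates, and 72 of 17612 identifiers had no symbol. Libraries were grouped by title. Each pair of replicates differed beyond sampling noise (chi-square over its degrees of freedom, 8.99 to 36.3), so all were kept. Counts were tested with edgeR 4.0.16 (R 4.3.3; glmQLFit and glmQLFTest, robust) after filterByExpr by group (8802 genes) and TMM scaling, with only the group in the model, Benjamini-Hochberg adjusted over all tested genes, threshold 0.05. The standard error is the log2 fold change divided by the square root of F. The fit was tested on simulated data. Python 3.11.15, pandas 2.3.3 and matplotlib 3.10.9 made summaries and figures.

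The Cpr genes, the 6 further lists (143 of 144 names matched), the 9 marker lists and the rule for named genes were chosen with earlier results of these data known. Named are every tested Cpr gene, the 5 untested ones with the most counts, and of each further list up to 4 called members or else the 2 with the smallest p. Neighbours, Lcp1, Lcp2, Lcp4, Lcp65A genes, Cpr92A and other untested Cpr genes were named after their values were seen. So were the markers Sgs1, Lsp1alpha, Fbp2, Apoltp, Sgs5, fkh, dac, Scr, Dll and Antp, and the tanning genes stw, ple, yellow-c and yellow-d. Alternatives were RLE factors, library totals, no count filter, DESeq2 1.42.0, a filter at 1 CPM in 3 libraries, the replicate number as a block, adjusted p under 0.01, other limits for expressed genes (0.5 or 5 CPM) and each library left out in turn.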

Additional observations from a re-analysis of the deposited data

How the results depend on the processing

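The 15 Cpr genes expressed at 1 CPM were 20 at 0.5 CPM, 10 at 5 CPM, 14 by the count filter, and 15 or 16 with a library left out. The 2 Cpr calls, Cpr65Au and Cpr97Ea, were also made with RLE factors, library totals, no count filter, the stricter filter, DESeq2 and the replicate block. DESeq2 added Cpr67B, giving 3. At an adjusted p under 0.01 there were 0 Cpr calls and 54 over all genes, against 131. With a library left out, which also lowers power, 0 to 1 Cpr genes and 46 to 157 of all genes passed, and 3 to 5 Cpr genes stood at an unadjusted p under 0.05. DESeq2 called 312 genes. Of the estimates that did not pass, 3 changed sign, each only with a library left out: Cpr64Ad ranged over -0.79 to 0.36 (0.21 without Double replicate 2, 0.36 without WT replicate 2), Cpr11B over -0.14 to 0.07 (0.04 without Double replicate 1 or 3, 0.07 without WT replicate 1) and Cpr12A over -0.08 to 0.0036 (positive without Double replicate 1). None of the other tested Cpr genes changed sign in any of the 12 alternatives. With the replicate number as a block 166 genes passed; the correlations of same-numbered libraries were -0.10, -0.23 and 0.34, so the numbers were not taken to pair libraries, and 1 of the 3 Double libraries correlated best with its own number. Depth limits the 39 Cpr genes with counts below the filter; with no count filter all 53 with a count were tested and the same 2 passed.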
